A study of Homo sapiens with 4 samples.

Results

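Thrombospondins are large secreted glycoproteins that bind matrix, calcium and cell surface receptors. The family members THBS1, THBS2, THBS3, THBS4 and COMP, with the cell surface receptors CD36 and CD47, were followed here in gastric cancer cells with and without PRMT6. The members were all probe sets of the array whose platform annotation gives 1 of these 7 symbols and no other, and there were 23 of them among 54613 probe sets: 7 for THBS1, 1 each for THBS2, THBS3, THBS4 and COMP, 5 for CD36 and 7 for CD47. THBS1 has been reported elsewhere as a gene repressed by PRMT6, an arginine methyltransferase that dimethylates arginine on histone H3.

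The cells were NUGC3, an established human gastric cancer line, and total RNA was measured on 4 single-colour Affymetrix arrays. The control group was 2 arrays of NUGC3 cells labelled PRMT6 wild type. The knockout group was 2 arrays of NUGC3 cells infected with a lentivirus carrying lentiCRISPR v2 and a guide against PRMT6, selected with puromycin and cloned by limiting dilution. How many clones the knockout arrays represent, whether the control cells carried a vector or were cloned, and whether the replicates were separate cultures, the sources used here do not give. A p-value therefore measures only the spread between these arrays, which may be technical. Clone and genotype cannot be told apart. If the control cells were not infected and selected, infection and puromycin selection cannot be told apart from genotype either. The guide is shown because it defines the knockout group; it is 20 bases long, and capitals mark the 10 bases at its 3′ end, next to where Cas9 needs its PAM.
PRMT6 guide: gacggtactgGACGTGGGCG

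THBS1 and THBS2 are trimers with type 1 repeats, which carry the binding site for CD36 and, in THBS1, the site that activates latent TGF-beta. They are best known as inhibitors of angiogenesis. THBS3, THBS4 and COMP are pentamers without those repeats, with roles in cartilage, tendon, muscle and other connective tissue. CD36 is a scavenger receptor for fatty acids and lipoproteins that transmits the antiangiogenic signal of THBS1 in endothelial cells. CD47 binds the carboxy-terminal part of THBS1 and, on tumour cells, the macrophage receptor SIRPA, which restrains phagocytosis.

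THBS1 had a called probe set, and THBS2 is its closest relative. CD47 had 0 of 7 probe sets called and 4 higher in the knockout without overlap, against 19.7% of all probe sets. The bases just upstream of the annotated gene starts are shown for THBS1, CD47 and THBS2, and the counts for the other members follow. Each is 250 bases ending at the base before the start, from RefSeq on GRCh38.p14, and capitals mark GGGCGG, the GC box bound by SP1, or its reverse complement CCGCCC.
THBS1: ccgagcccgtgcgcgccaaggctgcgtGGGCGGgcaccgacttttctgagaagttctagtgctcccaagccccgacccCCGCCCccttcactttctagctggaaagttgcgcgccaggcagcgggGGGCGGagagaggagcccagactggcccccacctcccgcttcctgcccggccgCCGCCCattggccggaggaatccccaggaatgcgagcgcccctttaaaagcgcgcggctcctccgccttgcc
CD47: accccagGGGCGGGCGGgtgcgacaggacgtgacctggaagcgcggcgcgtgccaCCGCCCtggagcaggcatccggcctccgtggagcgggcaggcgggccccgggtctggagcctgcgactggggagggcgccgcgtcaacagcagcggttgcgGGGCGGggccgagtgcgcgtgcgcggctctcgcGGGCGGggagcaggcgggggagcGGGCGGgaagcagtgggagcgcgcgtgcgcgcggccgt
THBS2: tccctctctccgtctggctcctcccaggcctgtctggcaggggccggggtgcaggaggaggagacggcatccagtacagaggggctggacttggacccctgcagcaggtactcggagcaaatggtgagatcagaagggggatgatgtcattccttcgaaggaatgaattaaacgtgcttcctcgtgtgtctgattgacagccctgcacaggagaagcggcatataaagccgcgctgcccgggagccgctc

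The THBS1 stretch is chr15:39580829-39581078 on the plus strand and holds 4 GC boxes, a number reached by 7.63% of 35116 such stretches. The CD47 stretch, chr3:108091032-108091281 on the minus strand, holds 6, a number reached by 2.22%, and 2 of the boxes overlap each other. The THBS2 stretch, chr6:169253847-169254096 on the minus strand, holds 0. Of the other members, COMP has 2, a number reached by 24.3% of all stretches. THBS3 has 1 before each of its 2 annotated starts, and THBS4 has 1 before 1 of its 2 starts. The 6 stretches of CD36 hold 0. At least 1 GC box was found in 42.6% of all stretches. The letters GTGGGCG, the core of the site of the EGR factors, or their reverse complement, occur once in the THBS1 stretch, 225 bases before the start and overlapping a GC box, once in the COMP stretch, 9 bases before the start, and in 8.53% of all stretches. CCAAT or ATTGG occurs once in the THBS1 stretch, in 1 stretch each of THBS3, THBS4 and CD36, and in 32.0% of all stretches. These motifs were chosen with the expression results known, and a match is a description of the letters only. Any link between a motif and a change in expression was not tested.

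The 7 markers listed for gastric carcinoma epithelium had a median control level of 12.0 (RMA log2). All lay above the median of all probe sets at 4.75. In the test of genes described below, 0 of the 7 were called changed, against 0.475% of all genes. The knockout lay above control without overlap in 4 and below it in 2, against 21.7% and 21.6% of all genes. The smallest p-values were those of MUC1 and CDH1, with log2 fold changes of 0.64 and -0.35 (limma adjusted p = 0.0897 and 0.187). Markers of fibroblasts, endothelium, leukocytes and platelets, which are cell types rich in thrombospondins or their receptors, had median control levels of 3.81, 4.87, 4.72 and 4.89, and 0 of the 23 measured were called. Of these 23, 10 also lay above the median of all probe sets, and levels of different probe sets are not on 1 scale. PRMT6 read 7.66 and 7.66 in control and 6.87 and 6.91 in knockout, which is -0.77 on the log2 scale (SE 0.086; limma gave an adjusted p of 0.1145 over all probe sets), so the targeted transcript was lower without passing the test. Control replicate 2 had an upper quartile of 6.62, against 6.77 to 6.79 on the other arrays.

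Of the 23 member probe sets, 1 was called changed (limma, Benjamini-Hochberg adjusted p under 0.05 over all 54613 probe sets), and it was a THBS1 probe set that rose. The test called 0.148% of all probe sets (0.117% higher and 0.0311% lower). The knockout values lay above both control values in 11 members and below both in 1, while 19.7% and 18.9% of all probe sets did so. The 11 were 6 of THBS1, 4 of CD47 and 1 of CD36. Of the 13 members above the median level 9 did so, among them 5 of 5 of THBS1 and 4 of 6 of CD47, against 27.0% of all probe sets that bright. An unadjusted p under 0.05 was reached by 8 members, 6 of THBS1 and 2 of CD47, all higher, against 8.65% of all probe sets (4.65% higher). Probe sets of 1 gene were read on the same 4 arrays for the same gene, so these counts are not of independent observations. The median log2 fold change was 0.086 over the members and -0.0029 over all probe sets. In bulk RNA, a different number of cells making a transcript and a different amount per cell cannot be told apart.

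**Figure D1:**
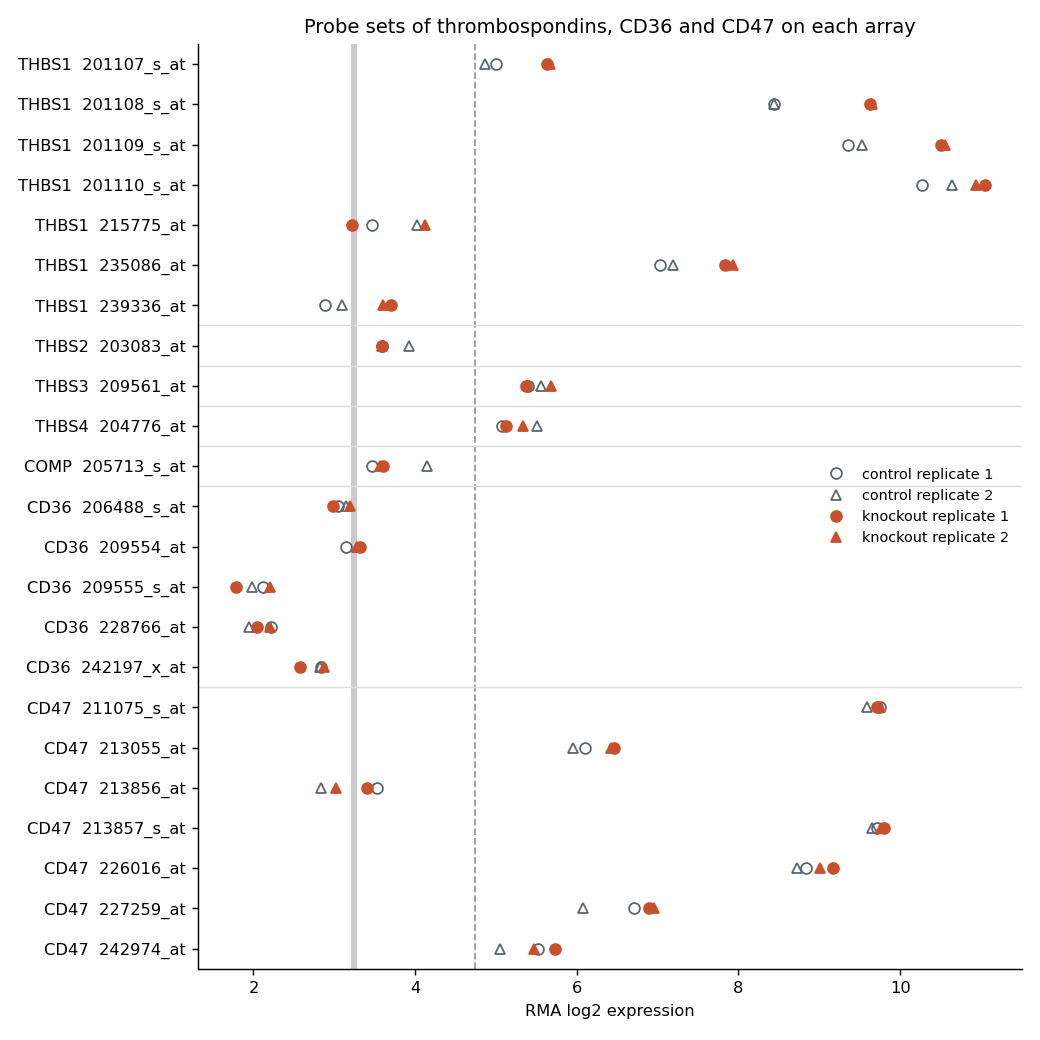
RMA log2 expression (horizontal axis) of each of the 23 member probe sets (rows) on the 4 arrays; open grey symbols are control, filled red symbols knockout, circles replicate 1 and triangles replicate 2. The grey band spans the lower quartiles of the 4 arrays and the dashed line is their median; 6 of 7 THBS1 probe sets have both red symbols to the right of both grey ones, and all CD36 probe sets lie near or left of the band.

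THBS1, thrombospondin 1, was higher in the knockout by most of its probe sets, and 1 of them passed the test. Probe set 201108_s_at read 8.44 and 8.44 in control replicates 1 and 2 and 9.63 and 9.65 in knockout replicates 1 and 2. The replicates nearly coincided within each group, and the groups were 1.19 apart at their nearest. Its log2 fold change was 1.20 (SE 0.085), or 2.30-fold (limma adjusted p = 0.0409, n = 2 arrays per group). The fold change was 1.19 to 1.21 with any 1 array left out, but the call was then lost: the adjusted p was 0.232 without control replicate 1, 0.565 without control replicate 2 and 1.0 without either knockout array.

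The other bright THBS1 probe sets moved the same way without passing. Probe set 201109_s_at read 9.35 and 9.53 in control and 10.50 and 10.55 in knockout, a log2 fold change of 1.08 (SE 0.10, limma adjusted p = 0.0873). Probe set 235086_at read 7.03 and 7.20 in control and 7.83 and 7.93 in knockout, with 0.77 (SE 0.11, limma adjusted p = 0.166). In each the groups were further apart than the replicates of either group. Probe set 201107_s_at, close to the median of the arrays, read 4.99 and 4.86 in control and 5.63 and 5.67 in knockout, a log2 fold change of 0.72. The brightest, 201110_s_at, read 10.27 and 10.64 in control and 11.05 and 10.93 in knockout, with the smallest fold change of the bright probe sets at 0.54 (SE 0.15, limma adjusted p = 0.454). Its control arrays lay 0.36 apart, more than the 0.30 that separated the groups.

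The 2 dimmest THBS1 probe sets differed from each other. Probe set 239336_at read 2.89 and 3.10 in control and 3.70 and 3.61 in knockout (log2 fold change 0.66, limma adjusted p = 0.238), with its control values below the lower quartile of their arrays. Probe set 215775_at read 3.47 and 4.02 in control and 3.22 and 4.13 in knockout, so its groups overlapped, and the 95% interval of its change, -1.01 to 0.87, holds the changes of the other probe sets except those of 201108_s_at and 201109_s_at. Signals this dim were not shown to be above background.

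Averaged over its 7 probe sets, THBS1 stood at 6.64 and 6.83 in control and 7.37 and 7.50 in knockout (means 6.73 ± 0.13 and 7.43 ± 0.092, SD, n = 2 each). The difference of 0.70 was larger than the spread of either group, and it was 0.86 over the 5 probe sets above the median level. An exact two-sided permutation test over the arrays gave p = 0.333, the smallest that 2 arrays against 2 can give. When each gene was represented by its brightest probe set, as in the test of genes below, THBS1 was not called (adjusted p = 0.282), nor was it by the mean of its probe sets (limma adjusted p = 0.0851). Between the bright probe sets with the largest and the smallest fold change, a pair chosen after their values were seen, 201108_s_at minus 201110_s_at was -1.83 and -2.20 on the control arrays and -1.42 and -1.29 on the knockout arrays. Which part of the transcript each probe set reads was not determined here.

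THBS2, the other trimeric family member, read 3.59 and 3.92 in control and 3.59 and 3.58 in knockout. The knockout values lay below both control values, but by 0.0033 only, and 3 of the 4 arrays nearly coincided. Its log2 fold change was -0.17 (95% interval -0.54 to 0.19, limma adjusted p = 0.760). A change as large as that of 201108_s_at thus lies outside the interval, although a level this close to the lower quartile may be compressed by background.

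The pentameric members did not pass either. THBS3, expressed in the growing skeleton, read 5.40 and 5.56 in control and 5.37 and 5.68 in knockout, a log2 fold change of 0.045 (95% interval -0.32 to 0.41). THBS4, a thrombospondin of muscle, tendon and the nervous system, read 5.08 and 5.51 in control and 5.12 and 5.33 in knockout, a log2 fold change of -0.065 (95% interval -0.54 to 0.41). COMP, the cartilage oligomeric matrix protein, read 3.46 and 4.15 in control and 3.61 and 3.57 in knockout, a log2 fold change of -0.22 (95% interval -0.86 to 0.41). The groups overlapped in all 3, and in THBS4 and COMP control replicate 2 was the highest of the 4 arrays, as it was in THBS2. Without that array the log2 fold changes of THBS2, THBS4 and COMP were -0.0055, 0.15 and 0.12. COMP lay at about the level of THBS2 (means over the arrays 3.70 and 3.67), so its change may also be compressed by background.

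CD36 was at or near the lower quartile of the arrays, or below it, by every probe set. Its 20 values ranged from 1.78 to 3.32, and the lower quartiles of the arrays were 3.21 to 3.29. The brightest probe set, 209554_at, read 3.15 and 3.28 in control and 3.32 and 3.29 in knockout, where the knockout values lay above the control values by 0.0023. The log2 fold changes of the 5 probe sets were -0.098 to 0.086, and 0 passed the test (lowest limma adjusted p = 0.829) or had an unadjusted p under 0.05. The sign of 206488_s_at turned under quantile and cyclic loess normalization, to 0.028 and 0.029 from -0.0076. Signals near the background have compressed fold changes, and a change of CD36 could not be measured at this level.

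CD47 was bright, and 0 of its 7 probe sets passed the test (lowest limma adjusted p = 0.374). The brightest, 213857_s_at, read 9.72 and 9.65 in control and 9.80 and 9.77 in knockout, a log2 fold change of 0.096 (95% interval -0.14 to 0.33). The next, 211075_s_at, read 9.75 and 9.59 in control and 9.72 and 9.75 in knockout, a log2 fold change of 0.067 (95% interval -0.20 to 0.33), with overlapping groups. These 2 intervals hold the changes of the other CD47 probe sets except those of 213055_at (0.42) and 227259_at (0.54). Whether the probe sets differ in their change was not tested.

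Other CD47 probe sets lay higher in the knockout without passing. Probe set 213055_at read 6.10 and 5.95 in control and 6.46 and 6.42 in knockout, a log2 fold change of 0.42 (SE 0.099, limma adjusted p = 0.374). Probe set 226016_at read 8.84 and 8.72 in control and 9.17 and 9.01 in knockout, a log2 fold change of 0.31 (SE 0.11, limma adjusted p = 0.539). The groups did not overlap in either, and these were the CD47 probe sets with an unadjusted p under 0.05. Probe set 227259_at read 6.70 and 6.07 in control and 6.89 and 6.96 in knockout, and its log2 fold change of 0.54 was 0.22 without control replicate 2. Probe set 242974_at read 5.52 and 5.05 in control and 5.73 and 5.47 in knockout, and the dim 213856_at read 3.53 and 2.84 in control and 3.40 and 3.02 in knockout, with overlapping groups in each. Over its 7 probe sets CD47 averaged 7.17 and 6.84 in control and 7.31 and 7.20 in knockout, a difference of 0.25 (exact two-sided permutation p = 0.333, the smallest possible). All 7 log2 fold changes were positive, but those of 211075_s_at and 213856_at were -0.015 and -0.32 without control replicate 2. That array gave the lowest value of every CD47 probe set, and its part in these differences was not tested.

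**Figure D2:**
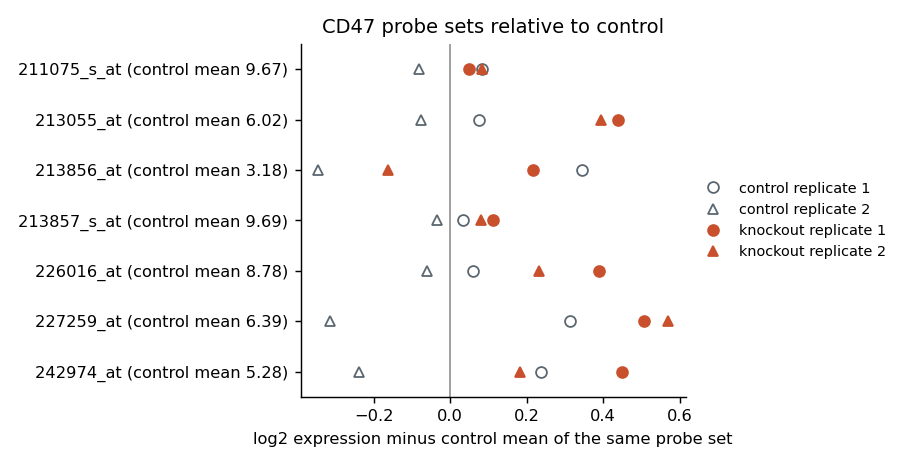
Each CD47 probe set (rows, with its control mean) on the 4 arrays, as log2 expression minus the control mean of the same probe set (horizontal axis); open grey symbols are control, filled red symbols knockout, circles replicate 1 and triangles replicate 2. Control replicate 2 is the lowest array in every row, and the groups are apart in 4 of 7 rows, with gaps of 0.046 to 0.32.

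**Figure D3:**
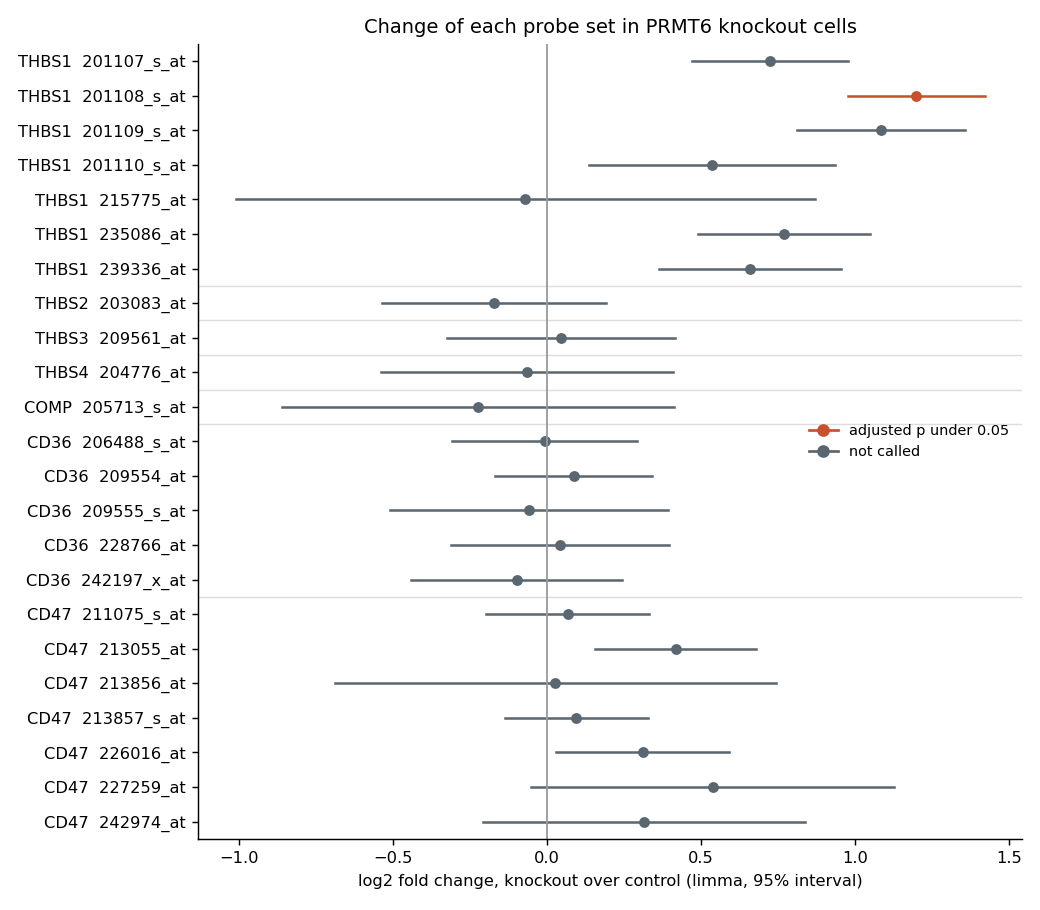
The log2 fold change, knockout over control, of the 23 member probe sets (points) with the 95% interval of limma's moderated estimate (lines), n = 2 arrays per group. The 1 called probe set, THBS1 201108_s_at at 1.20, is red; the intervals of 6 THBS1 and 2 CD47 probe sets lie right of 0, before any adjustment for the number of tests.

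The genes around the thrombospondins were read 1 probe set per gene, with limma adjusted over 19775 genes. Of 136 genes listed in 8 groups of receptors, partners, relatives and regulators, 131 were measured and 0 were called, while 0.475% of all genes were called. At an unadjusted p under 0.05 there were 22 of the 131, against 11.9% of all genes. Their median log2 fold change was 0.023, against -0.0091 over all genes. The knockout lay above control without overlap in 37 and below it in 24, against 21.7% and 21.6% of all genes.

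Among the other receptors of thrombospondins (16 genes, 0 called, median -0.046) the smallest p-values were those of CACNA2D1 and SDC4. CACNA2D1, the calcium channel subunit through which thrombospondins promote synapse formation, read 4.19 and 3.97 in control and 4.77 and 5.19 in knockout. Its log2 fold change was 0.90 (adjusted p = 0.1695), while its dimmer probe set gave 0.030. Both control values of the brighter probe set lay below the median of all probe sets at 4.75. SDC4, the heparan sulphate proteoglycan syndecan 4, gave 0.33 (adjusted p = 0.202). In the CD47 and SIRP group (7 genes, 0 called, median -0.055) the smallest p-values belonged to CD24, another surface signal that restrains macrophages, at -0.20, and SIRPB1 at -0.20 (adjusted p = 0.455 and 0.458). SIRPB1 read 3.51 and 3.61 in control and 3.31 and 3.40 in knockout, close to the lower quartile of the arrays.

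The group of class B scavenger receptors and fatty acid uptake held 13 genes, 0 called, with a median of 0.0053. PPARG, a nuclear receptor that induces CD36 in macrophages, read 7.07 and 6.65 in control and 5.48 and 5.57 in knockout, which is -1.33 on the log2 scale with SE 0.16 (adjusted p = 0.0754). The groups were 1.07 apart. SCARB1, the HDL receptor and a relative of CD36, read 7.59 and 7.51 in control and 8.21 and 8.12 in knockout, with 0.62 (adjusted p = 0.0897) and 0.13 to 0.64 on its other 4 probe sets.

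In the latent TGF-beta group (9 genes, 0 called, median 0.13) the smallest p-values were those of LTBP2 and LTBP4, at 0.47 and -0.25 (adjusted p = 0.130 and 0.321). Among 18 measured ADAMTS proteases (0 called, median -0.045) ADAMTS6 read 5.44 and 4.91 in control and 3.79 and 4.03 in knockout, with -1.26 (adjusted p = 0.125), and its dimmer probe sets gave -0.19 and -0.052. ADAMTS12 gave 0.67 (adjusted p = 0.138) and -0.20 on its dimmer probe set. Of 34 other measured proteins with type 1 repeats (0 called, median 0.011) ADGRB3, a brain angiogenesis inhibitor, and ISM1, isthmin, gave 0.38 and 0.35 (adjusted p = 0.191 and 0.2275). Both lay below the median of the arrays. ADGRB3 read 1.88 and 1.99 in control and 2.31 and 2.33 in knockout, below the lower quartile of each array. Signals this dim were not shown to be above background.

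The transcription factors reported to control THBS1 (16 measured, 0 called) had a median of 0.069, and 14 were positive (13 with quantile or cyclic loess normalization), as were 9362 of all 19775 genes. These factors were brighter than most genes, with a median control level of 8.95 against 5.77 over all genes. What part level has in the signs was not tested. EGR1, an immediate early factor, read 8.69 and 8.36 in control and 9.20 and 9.26 in knockout, a log2 fold change of 0.70 (adjusted p = 0.163), with 0.50 and 0.59 on its other probe sets. NR4A2, an orphan nuclear receptor, gave 0.42 (adjusted p = 0.320). Of the other regulators of angiogenesis (18 genes, 0 called, median 0.056) ANGPT2, the ligand angiopoietin 2, read 5.25 and 4.91 in control and 6.54 and 6.38 in knockout, with 1.38 (SE 0.15, adjusted p = 0.0604) and 0.67 to 1.21 on its 3 dimmer probe sets. TIMP3, a metalloprotease inhibitor that blocks VEGF signalling, gave -0.43 (adjusted p = 0.150), and -0.66 to -0.45 on its other probe sets. ANGPT2 and PPARG passed after quantile normalization (smallest adjusted p = 0.0277) and after cyclic loess (0.0286).

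The members lie on 7 different chromosomes, THBS1 on 15, THBS2 on 6, THBS3 on 1, THBS4 on 5, COMP on 19, CD36 on 7 and CD47 on 3. Of the 42 genes that flank them, 3 measured genes on either side, 1 was called, against 0.475% of all genes. It was SMOC2, a secreted matricellular protein 3 measured genes before THBS2, at 2.50 (adjusted p = 0.0162). The neighbours of THBS1 had log2 fold changes of -0.37 to 0.33 with a median of -0.042 and 3 of 6 were positive. FAM98B and LINC02915 lay higher in the knockout without overlap, at 0.15 and 0.33, and FSIP1 lay lower, at -0.37. Over all genes, 21.7% lay higher and 21.6% lower without overlap. Of the 6 neighbours of THBS1, 0 were called. CACNA2D1 is a neighbour of CD36 as well as a receptor, and the 6 neighbours of CD36 had a median of -0.063.

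Among 12760 other genes above the median level, the 5 whose values followed the brightest THBS1 probe set most closely over the 4 arrays were FZD4, GLIS3-AS1, CGREF1, GULP1 and CXXC4. The root mean square difference between their centred values and those of THBS1 was 0.044, 0.050, 0.057, 0.081 and 0.083 on the log2 scale. FZD4, a WNT receptor, read 6.73 and 6.99 in control and 7.50 and 7.39 in knockout, which is the same order of arrays as for 201110_s_at. Their log2 fold changes were 0.42 to 0.67 and 0 of the 5 were called. The level filter used the mean of all 4 arrays, knockout arrays included. CXXC4 read 4.32 and 4.73 in control, both below the median of 4.75, so it passed the filter through its higher knockout values. CGREF1 read 4.54 and 4.94 in control, with a mean just below that median, and 5.23 and 5.10 in knockout. It too passed the filter through its higher knockout values. Likeness over 4 arrays is a description only. The 5 genes were picked by it, so a similar array order and fold changes near that of 201110_s_at follow from the choice.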

How the data were processed

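The values are RMA log2 expression per probe set, which the authors deposited; per the submitters' processing notes the affy package and its RMA method were used, on RNA amplified with a 3′ IVT kit, per the labels' protocols. Versions are not stated in the labels. RMA forces arrays towards a common distribution and compresses changes of dim probe sets. Precision is limited by the number of arrays, which carry no read depth.

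Probe sets carried 1 gene symbol (41091), several (1801) or none (11721) in the platform annotation; 41037 were matched to GRCh38.p14 by gene ID. All 54613 probe sets were fitted with limma 3.58.1 in R 4.3.3 (lmFit, eBayes with defaults, group as the only term, two-sided, Benjamini-Hochberg, called at an adjusted p under 0.05). Genes of the lists were fitted with the brightest probe set per gene over 19775 genes. The fit was tested on simulated data. Fold changes are knockout over control.

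Every member probe set was described whatever its value, and from each list all called genes and the 2 with the smallest p. Likeness to THBS1 was ranked by root mean square difference. Members and lists were chosen with earlier results of these data known. Alternatives were quantile and cyclic loess normalization, an intensity trend, no pooling of variance, a filter at the median level, the mean of all probe sets, a replicate block and leaving out each array. Listed genes without a probe set of 1 symbol were not analysed here.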

Additional observations from a re-analysis of the deposited data

How the results depend on the processing

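The rise of THBS1 201108_s_at kept its direction under every alternative run, and remained called under quantile and cyclic loess normalization, an intensity trend in the prior and a filter at the median level. The number of member probe sets called was 3 with the trend (201109_s_at and 235086_at added), 2 with the filter (201109_s_at added), 0 with no pooling of variance (6 at an unadjusted p under 0.05) and 0 when any 1 array was left out, where 5 to 11 had an unadjusted p under 0.05. Over all probe sets the calls were 123 with cyclic loess, 797 with the trend, 167 with the filter and 6 with no pooling; over all genes they were 195 with quantile normalization, 231 with cyclic loess, 797 with the trend, 309 with the filter and 3 with no pooling, and 0 for either with any 1 array left out (1776 to 10546 probe sets and 954 to 4892 genes at an unadjusted p under 0.05). The share of called genes that were higher was 75.5%, and 63.6% with quantile and with cyclic loess normalization. Of the 131 pathway genes, 2 were called with quantile, 2 with cyclic loess, 10 with the trend, 3 with the filter, 2 with the mean of all probe sets and 0 with any 1 array left out (12 to 38 at an unadjusted p under 0.05). The cause of these differences was not tested. The THBS1 mean over probe sets was 0.86 over those above the median level, which leaves out the 2 dimmest, and 0.605 to 0.795 with 1 array left out.

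The replicate numbers occur in each group, but nothing says that they pair the arrays, and the differences between replicates 1 and 2 correlated at r = 0.0942 between the groups over all probe sets and -0.0665 over genes. With the replicate number as a block, 0 member probe sets, 0 probe sets in all, 0 pathway genes and 0 genes were called in limma, with 8, 4160, 19 and 1942 at an unadjusted p under 0.05.

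Values that changed sign were all from uncalled probe sets. CD36 206488_s_at was 0.0278 with quantile and 0.0289 with cyclic loess normalization, and CD36 was -0.0073 as the mean of its probe sets. With 1 array left out, log2 fold changes ranged from -0.523 to 0.382 for THBS1 215775_at, -0.107 to 0.196 for THBS3, -0.283 to 0.152 for THBS4 and -0.568 to 0.121 for COMP. For CD36 they ranged from -0.116 to 0.101 (206488_s_at), -0.275 to 0.157 (209555_s_at), -0.0967 to 0.18 (228766_at) and -0.248 to 0.0524 (242197_x_at), and for CD47 from -0.0153 to 0.149 (211075_s_at) and -0.317 to 0.372 (213856_at). Of the other values of member probe sets and genes under an alternative, 198 kept their direction and side of the threshold.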
